A study of Mus musculus with 15 samples.

Results

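The genes described here are 9 that encode growth factors or their receptors: the ligands Fgf7, Ereg, Hbegf, Hgf and Vegfa, and the receptor tyrosine kinases Met, Pdgfra, Pdgfrb and Egfr. Their symbols were chosen with measured values of these arrays in view. Fgf7 and Ereg were selected on their higher signal in C/EBPδ than in vector cells, and Met on its higher signal in C/EBPβ than in vector cells, so these 3 differences, and any other comparison of Fgf7 or Ereg with C/EBPδ or of Met with C/EBPβ, are given below as descriptions with no test. The vector arrays took part in that choice, so the p-values of these 3 genes in the other C/EBP groups against vector are not independent of it, whereas comparisons between the remaining C/EBP groups use none of the arrays it was made on except in the pooled spread and the scaling. The 9 are among 8251 genes that a probe set of the array names alone, and they have 14 of the 12422 probe sets that are not controls.

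RNA was measured in 5 groups of 3 arrays, all from NIH 3T3, a mouse embryo fibroblast line that grows without limit in culture. C/EBPα, C/EBPβ, C/EBPδ and C/EBPε cells carried the human cDNA of that C/EBP behind the zinc-inducible metallothionein promoter of the pMT plasmid, and vector cells carried the plasmid with no insert. All groups had been selected with G418 and had received ZnSO4 for 16 h, so the vector cells shared the zinc and the antibiotic. The labels call the transfectants polyclonal and the 3 cultures of a group triplicate clones, and they do not say whether these came from separate transfections, so each p-value rests on variation among those cultures, which may be technical. The amounts of the introduced human C/EBP mRNAs and proteins were not analysed here. In such pools, fewer expressing cells and less RNA per cell cannot be told apart.

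Signals are linear units per probe set, scaled to 1 median across arrays. Values under a floor of 189.652 units were raised to it before log2 was taken, and a probe set was tested only if 3 or more of the 15 arrays read above 1092.06 units, the case for 6963. Within groups the arrays correlated at 0.929 to 0.965. Of the fibroblast markers, Col1a1, Col1a2, Fn1, S100a4, Thy1 and P4hb exceeded the filter on all arrays, while Vim did so on 1. Among 7 epithelial markers Cdh1 alone exceeded it on any array, at 2033 to 3406 units, and Epcam, Krt5, Krt8, Krt14, Krt18 and Krt19 were under it on all 15. Of 6 endothelial markers, Kdr exceeded it on 13 arrays and Pecam1 on 2, and Cdh5, Tek, Tie1 and Emcn did so on none. Of 7 macrophage and blood markers, Ptprc, Adgre1 and Itgam were under the filter on every array, and Csf1r and Cd14 were over it on every array. Cd68 exceeded it on 11 arrays and Lyz2 on 3. The summed signal of these 7 ran from 12729.7 to 13515 units in C/EBPα, 10862 to 12848 in C/EBPβ, 10221 to 11899.5 in C/EBPδ and 14892 to 15293 in C/EBPε cells, against 12117 to 13301 in vector cells, and its part in the results below was not tested.

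Fibroblasts release growth factors that act on neighbouring cells or on themselves. FGF7, also called keratinocyte growth factor, is made by fibroblasts and acts on epithelial cells through a splice form of FGFR2. Epiregulin (Ereg) and HB-EGF (Hbegf) are made as membrane-bound precursors, are cut free by ADAM metalloproteases and bind the EGF receptor and its relatives. HGF, a product of mesenchymal cells, binds MET, VEGF-A acts chiefly on endothelium, and the PDGF receptors carry mitogenic signals of serum to fibroblasts. C/EBPs are bZIP transcription factors that bind DNA as dimers.

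The 250 bases before the annotated start of Fgf7 (chr2:126034408-126034657), of Met (chr6:17463707-17463956) and of the second annotated start of Hgf (chr5:16553651-16553900), all on the plus strand of GRCm38.p6 in RefSeq, are shown because these 3 genes rose in C/EBPα cells, and because the stretches hold no match, an AP-1 match and a C/EBP match. Capitals mark the matches.
Fgf7: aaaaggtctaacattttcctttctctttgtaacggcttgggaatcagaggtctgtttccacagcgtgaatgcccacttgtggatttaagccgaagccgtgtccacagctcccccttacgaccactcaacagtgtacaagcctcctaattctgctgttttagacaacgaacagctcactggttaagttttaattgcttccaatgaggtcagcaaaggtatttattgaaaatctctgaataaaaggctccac
Met: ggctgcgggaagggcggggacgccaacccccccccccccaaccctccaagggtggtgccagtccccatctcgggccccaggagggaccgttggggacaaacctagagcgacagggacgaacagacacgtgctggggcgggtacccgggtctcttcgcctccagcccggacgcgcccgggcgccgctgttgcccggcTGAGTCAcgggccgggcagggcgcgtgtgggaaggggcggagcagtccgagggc
Hgf: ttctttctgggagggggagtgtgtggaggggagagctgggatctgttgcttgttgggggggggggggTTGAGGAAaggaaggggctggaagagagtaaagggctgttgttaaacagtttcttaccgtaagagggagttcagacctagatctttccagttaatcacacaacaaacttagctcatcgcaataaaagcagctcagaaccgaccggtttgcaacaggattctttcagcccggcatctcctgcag

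Motifs were searched on both strands in windows from 250 bases before to 50 after each start: the C/EBP palindrome TTGCGCAA, the looser C/EBP form TTNNGNAA, which contains the palindrome, the AP-1 form TGACTCA and the CRE form TGACGTCA. RefSeq windows were at hand for 6 of the 9 genes, 8 windows in all. The Fgf7 window held none of the 4 motifs. The Met window held the AP-1 form at bases 197 to 203, on the minus strand, a form present in 5.2% of all 32851 windows. The Hgf window held TTGAGGAA at bases 68 to 75, a match to the looser C/EBP form, which 40.7% of all windows hold, and the window of the other Hgf start held no match. The same looser form was matched 3 times in the Pdgfra window and 1 time in the 2 Vegfa windows, genes that passed in no comparison, and the Egfr window held no motif. The palindrome, present in 0.183% of windows, and the CRE form, present in 1.79%, were in no window of these genes. A match is a stretch of letters and no evidence of binding.

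Of the 14 probe sets, 8 passed the filter, 1 each for Fgf7, Ereg, Hgf, Met, Vegfa, Hbegf, Pdgfra and Pdgfrb. In C/EBPα cells Fgf7, Ereg, Hgf and Met rose and Hbegf fell, and 3 of the 8 did not pass; over all probe sets tested, 7.17% were called higher and 7.15% lower. In C/EBPε cells Fgf7, Ereg and Met rose, Hbegf fell and 4 did not pass, where 9.38% and 6.91% of all probe sets were called higher and lower. In C/EBPβ cells, of the 7 tested besides Met, Fgf7 and Pdgfrb rose, Hbegf fell and 4 did not pass (5.13% of all probe sets higher, 4.18% lower). In C/EBPδ cells none of the 6 tested besides Fgf7 and Ereg passed in limma, 1 of them (Met) reached an unadjusted p under 0.05, and among all probe sets 0.359% were called higher and 0% lower, with 144 lower at an unadjusted p under 0.05. The 4 comparisons share the 3 vector arrays and are therefore not independent of each other. Among the 5 tested genes other than Fgf7, Ereg and Met, the calls were Hgf and Hbegf in C/EBPα cells, Hbegf and Pdgfrb in C/EBPβ cells and Hbegf in C/EBPε cells. Hgf exceeded the filter on C/EBPα arrays alone, and Pdgfrb on no vector or C/EBPδ array. The filter therefore favoured their calls, as it did the rise of Met in C/EBPα cells. The rises of Ereg in C/EBPα and C/EBPε cells were favoured likewise, since 1 vector array exceeded the filter.

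**Figure D1:**
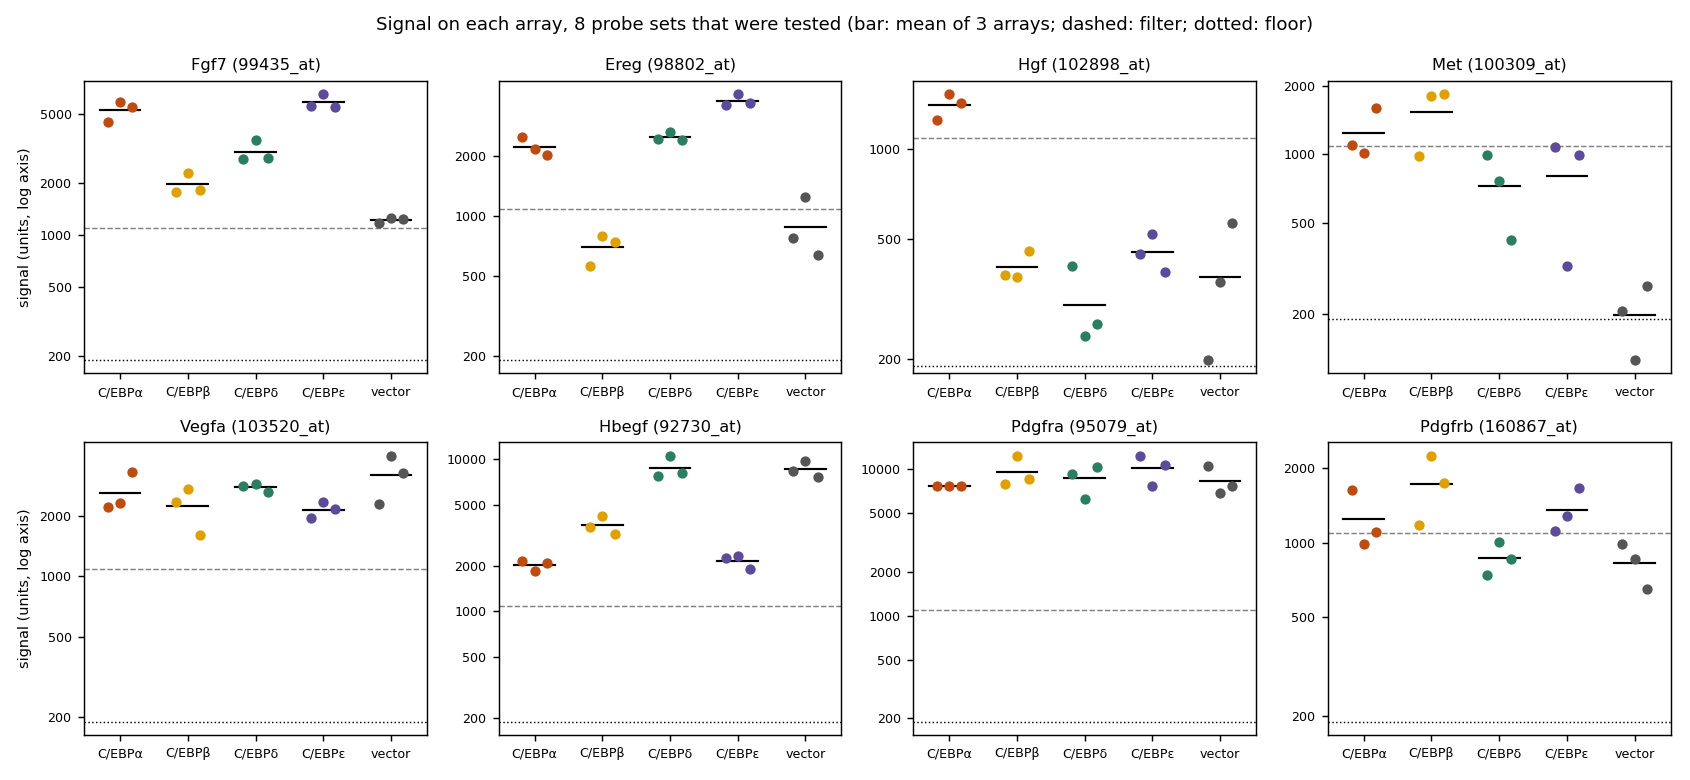
Signal of the 8 tested probe sets on each array (points, in units, log axis) by group, with the mean of 3 arrays as a bar, the filter dashed and the floor dotted. Fgf7 lay above all vector arrays in every C/EBP group, and Hbegf lay below all vector arrays in C/EBPα, C/EBPβ and C/EBPε cells but not in C/EBPδ cells.

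Fgf7 was higher than in vector cells on every array of the 4 C/EBP groups. It read 4500.3, 5859.8 and 5470.2 units in C/EBPα cells, 1769.8, 2293 and 1824 in C/EBPβ cells, 2741, 3555 and 2802 in C/EBPδ cells and 5559, 6489.8 and 5503 in C/EBPε cells, against 1175, 1263 and 1242 in vector cells. No C/EBP array overlapped with a vector array, and the vector arrays were the closest together (1227 ± 46 units, SD, n = 3). Fgf7 rose 4.28-fold in C/EBPα cells (log2 difference 2.10, SE 0.15, adjusted p = 6e-08) and 4.76-fold in C/EBPε cells (2.25, SE 0.15, adjusted p = 2.82e-08). In C/EBPβ cells it rose 1.59-fold (0.67, SE 0.15, adjusted p = 0.00995), a call lost without C/EBPβ replicate 2 (adjusted p = 0.0575), without the 5 arrays numbered 1 (0.0589) and with only C/EBPβ and vector in the fit (0.0627). In C/EBPδ cells, the group on which it was selected, it was 2.46 times the vector level. By mean signal the order was C/EBPε (5851 ± 554), C/EBPα (5277 ± 700.1), C/EBPδ (3032 ± 453), C/EBPβ (1962 ± 288) and vector.

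The order of Fgf7 among the C/EBPs was set against the spread. C/EBPε and C/EBPα overlapped and differed by 0.15 on the log2 scale (95% interval -0.17 to 0.48, adjusted p = 0.831). C/EBPβ lay below C/EBPα by a log2 difference of -1.43 (SE 0.15, adjusted p = 2.42e-05), and C/EBPε lay 2.99-fold above C/EBPβ (adjusted p = 1.09e-05). C/EBPδ stood between, with no overlap with either neighbour, and was not tested.

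Ereg, the EGF receptor ligand, was higher in 3 of the 4 C/EBP groups and not in C/EBPβ cells. Its brighter probe set read 2486, 2165 and 2033 units in C/EBPα cells, 563, 796 and 740.2 in C/EBPβ cells, 2428, 2658 and 2414 in C/EBPδ cells and 3614, 4088 and 3700.0 in C/EBPε cells, against 779.7, 1243 and 640.4 in vector cells. The C/EBPα, C/EBPδ and C/EBPε arrays all lay above the vector arrays, while C/EBPβ and vector overlapped. Ereg exceeded the filter on all arrays of those 3 groups, on 1 vector array and on no C/EBPβ array. The filter therefore favoured a rise over vector and over C/EBPβ. Ereg rose 4.45-fold in C/EBPε cells (log2 difference 2.15, SE 0.22, adjusted p = 3.18e-06) and 2.60-fold in C/EBPα cells (1.38, SE 0.22, adjusted p = 0.000286). The difference in C/EBPβ cells was -0.30 (95% interval -0.76 to 0.16, adjusted p = 0.46). In C/EBPδ cells Ereg was 2.93 times the vector level, the value on which it was selected.

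Among the C/EBPs, C/EBPβ cells had the least Ereg. C/EBPβ was 3.21-fold below C/EBPα (adjusted p = 0.00018) and C/EBPε was 5.48-fold above C/EBPβ (adjusted p = 3.81e-06), directions that the filter favoured. Both calls held in all 28 alternative fits. C/EBPε and C/EBPα did not overlap, yet their difference of 0.77 (95% interval 0.32 to 1.23) missed the threshold at an adjusted p of 0.121, and it passed without vector replicate 2 (0.0354) and with the replicate number as a block (0.0497). The second Ereg probe set, of the kind that Affymetrix marks as shared within a gene family, read 4.83 to 97.9 units, under the floor on all 15 arrays, and so gave no comparison.

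Hbegf moved the other way. Its signal was 2141, 1848 and 2075 units in C/EBPα cells, 3592, 4206 and 3216 in C/EBPβ cells, 7786, 10499 and 8039.5 in C/EBPδ cells and 2234, 2319.9 and 1902 in C/EBPε cells, against 8345, 9692 and 7571 in vector cells. C/EBPδ overlapped with vector, and every array of the other C/EBP groups lay below all C/EBPδ and vector arrays. Hbegf fell 4.21-fold in C/EBPα cells (log2 difference -2.07, SE 0.15, adjusted p = 6.81e-08), 3.96-fold in C/EBPε cells (-1.99, SE 0.15, adjusted p = 1.07e-07) and 2.33-fold in C/EBPβ cells (-1.22, SE 0.15, adjusted p = 9.76e-05). In C/EBPδ cells the difference was 0.03 (95% interval -0.29 to 0.36, adjusted p = 0.996). These 3 calls held in all 28 alternative fits, with log2 differences between -2.16 and -1.98 in C/EBPα, -2.07 and -1.89 in C/EBPε, and -1.32 and -1.12 in C/EBPβ cells.

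The differences in Hbegf between the C/EBPs were tested directly. C/EBPδ was above C/EBPα by 2.11 (4.31-fold, adjusted p = 1.24e-07) and above C/EBPβ by 1.25 (2.38-fold, adjusted p = 0.000118), and C/EBPε was below C/EBPδ by a log2 difference of -2.02 (adjusted p = 1.49e-07). C/EBPβ was 1.81-fold above C/EBPα (adjusted p = 0.00302). C/EBPε was 1.70-fold below C/EBPβ (adjusted p = 0.0103), a call lost without C/EBPβ replicate 2 (0.0614), without C/EBPε replicate 3 (0.0772), without the 5 arrays numbered 1 (0.121) and with only those groups in the fit (0.0671). C/EBPε and C/EBPα overlapped, with a difference of 0.09 (95% interval -0.24 to 0.41, adjusted p = 0.928). Both Hbegf and Ereg encode EGF receptor ligands, and in C/EBPα and C/EBPε cells Ereg rose while Hbegf fell.

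**Figure D2:**
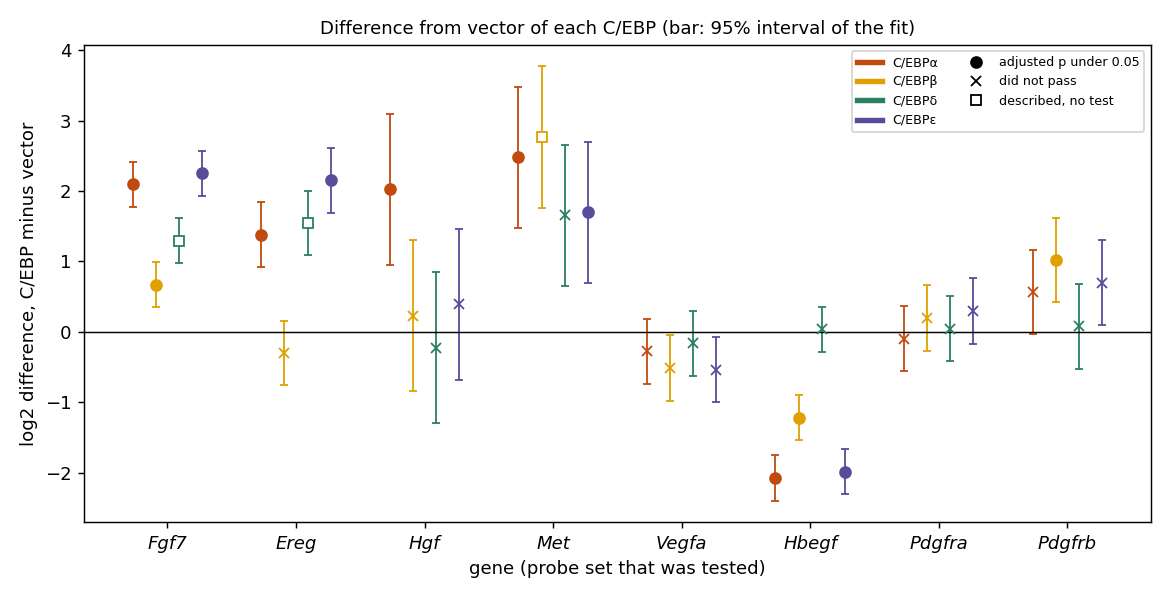
Log2 difference from vector of the 8 tested probe sets in each C/EBP group, with the 95% interval of the fit. Filled circles passed an adjusted p of 0.05, crosses did not, and open squares are the 3 values on which Fgf7, Ereg and Met were chosen. Hbegf lies between -2.07 and -1.22 in C/EBPα, C/EBPβ and C/EBPε and at 0.03 in C/EBPδ.

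Hgf was above the filter in C/EBPα cells alone. It read 1254, 1523 and 1423 units there, 381, 374 and 456 in C/EBPβ cells, 407, 239 and 261 in C/EBPδ cells and 446, 523 and 389 in C/EBPε cells, against 198, 361 and 567 in vector cells. The C/EBPα arrays lay above all others, and the other groups overlapped with vector. Hgf rose 4.06-fold in C/EBPα cells (log2 difference 2.02, SE 0.51, adjusted p = 0.0113), and since it entered the test through those 3 arrays, some difference between C/EBPα and any other group was built into its selection. The call was lost without vector replicate 1, the lowest array of the gene (1.63, adjusted p = 0.0512), and without the 5 arrays numbered 1 (1.70, adjusted p = 0.158). With the floor at the 40th percentile the difference shrank to 1.06 and the call was kept (adjusted p = 0.000586). In that fit the other C/EBPs differed from vector by 0, since values under that floor are raised to it.

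The other C/EBPs gave Hgf differences from vector of 0.23 in C/EBPβ (95% interval -0.84 to 1.30), -0.22 in C/EBPδ (-1.29 to 0.85) and 0.39 in C/EBPε cells (-0.68 to 1.46), with adjusted p-values of 0.841, 0.996 and 0.664. Set directly against C/EBPα, C/EBPδ was 4.75-fold lower (adjusted p = 0.00909), a direction that the filter favours. C/EBPβ was lower by a log2 difference of -1.79 and C/EBPε by -1.63, which missed the threshold (adjusted p = 0.074 and 0.179). The C/EBPβ difference passed in 9 of the 28 alternative fits and the C/EBPε difference in 2.

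Met, the receptor for HGF, was lowest in vector cells. It read 1098, 1019 and 1602 units in C/EBPα cells, 983, 1803 and 1837 in C/EBPβ cells, 995, 768 and 420.5 in C/EBPδ cells and 1084, 324 and 997 in C/EBPε cells, against 205, 125 and 264 in vector cells. No C/EBP array overlapped with vector, 4 arrays exceeded the filter (2 of C/EBPα and 2 of C/EBPβ), and vector replicate 2 lay under the floor. Met therefore entered the test through groups in which it was high, so that some difference was built in, and it is not tested where all 3 arrays of a group must pass the filter. With that limit, and against vector values raised to the floor where below it, Met rose 5.59-fold in C/EBPα cells (log2 difference 2.48, SE 0.47, adjusted p = 0.00161). It rose 3.24-fold in C/EBPε cells (1.70, SE 0.47, adjusted p = 0.0213), where C/EBPε replicate 2 stood apart from its 2 fellows. In C/EBPβ cells, the group on which Met was selected, it was 6.82 times the vector level.

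In C/EBPδ cells the Met difference was 1.66 (95% interval 0.65 to 2.66), with an unadjusted p of 0.00295 and an adjusted p of 0.305. Among the C/EBPs, C/EBPδ and C/EBPε differed from C/EBPα by -0.83 (adjusted p = 0.35) and -0.79 (adjusted p = 0.638), and C/EBPε from C/EBPδ by 0.04 (95% interval -0.96 to 1.05), so no order of Met among these 3 was established. The C/EBPε call was lost without vector replicate 1 (adjusted p = 0.0552), C/EBPε replicate 1 (0.0851) or C/EBPε replicate 3 (0.095), without the 5 arrays numbered 1 (0.178), with no filter (0.0535) and with only those groups in the fit (0.184). Because the vector arrays lie near the floor, a floor at the 40th percentile shrank the difference to 0.86 in C/EBPα (adjusted p = 0.0445), 1.14 in C/EBPβ, 0.26 in C/EBPδ and 0.42 in C/EBPε cells (adjusted p = 0.334).

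Pdgfrb, the receptor for PDGF-BB, read 1629, 989.9 and 1102 units in C/EBPα cells, 1181, 2239 and 1742 in C/EBPβ cells, 740.3, 1008 and 858 in C/EBPδ cells and 1108, 1282 and 1653 in C/EBPε cells, against 983, 855 and 651 in vector cells. The C/EBPα, C/EBPβ and C/EBPε arrays lay above the vector arrays and the C/EBPδ arrays overlapped with them. Pdgfrb exceeded the filter on 8 arrays, none of them of vector or C/EBPδ cells, so the filter favoured a rise over those groups. With that limit, Pdgfrb rose 2.03-fold in C/EBPβ cells (log2 difference 1.02, SE 0.28, adjusted p = 0.031). The call was lost without vector replicate 2 or 3 (adjusted p = 0.0534 and 0.135), without C/EBPβ replicate 2 or 3 (0.152 and 0.105), with no filter (0.0654) and with only C/EBPβ and vector in the fit (0.0624). The differences of 0.57 in C/EBPα and 0.70 in C/EBPε cells did not pass (adjusted p = 0.223 and 0.106). The C/EBPε difference (95% interval 0.10 to 1.30) passed with array weights (adjusted p = 0.0191). C/EBPε and C/EBPβ overlapped and differed by -0.32 (adjusted p = 0.676), so a rise particular to C/EBPβ was not established. In C/EBPδ cells the difference from vector was 0.08 (95% interval -0.52 to 0.67, adjusted p = 0.996). C/EBPδ and C/EBPβ did not overlap and differed by -0.95 (adjusted p = 0.0688), which passed in 5 of the 28 alternative fits.

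Pdgfra, the receptor that binds all PDGF-A and PDGF-B dimers, did not pass in any comparison. Its brightest probe set ran from 6286 to 12362 units, averaged 7676 ± 40.3 in C/EBPα, 9581 ± 2382 in C/EBPβ, 8663 ± 2138 in C/EBPδ and 10268 ± 2358 in C/EBPε cells, against 8334 ± 1861 in vector cells (SD, n = 3 each), and every C/EBP group overlapped with vector. The intervals of the difference from vector ran from -0.56 to 0.37 in C/EBPα, -0.27 to 0.66 in C/EBPβ, -0.42 to 0.51 in C/EBPδ and -0.17 to 0.76 in C/EBPε cells. The remaining Pdgfra probe sets lay far lower, at 192 to 1175 and at 9.2 to 373 units, and neither was tested. On the lower of them all 3 vector arrays, at 202, 204 and 274 units, were above the floor, while 10 of the 12 C/EBP arrays were under it.

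Vegfa, the endothelial growth factor, ran from 1605 to 3978 units on all arrays and averaged 2607 ± 595 in C/EBPα, 2225 ± 568 in C/EBPβ, 2773 ± 123 in C/EBPδ and 2147 ± 196 in C/EBPε cells, against 3185 ± 845 in vector cells (SD, n = 3 each). All C/EBP groups overlapped with vector. Each mean lay below that of vector, and no difference passed: -0.28, -0.52, -0.16 and -0.54 in C/EBPα, C/EBPβ, C/EBPδ and C/EBPε cells, with adjusted p-values of 0.487, 0.169, 0.993 and 0.11. The C/EBPε difference passed without vector replicate 1 (-0.76, adjusted p = 0.0362) and with quantile normalization (0.0464), and the C/EBPβ difference with array weights (0.0111).

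Egfr, the receptor of Ereg and Hbegf, did not pass the filter. Its 3 probe sets ran from 141 to 1186, 92.2 to 698 and 32.6 to 165 units, and none was tested. The brightest read 546, 295 and 962 units in C/EBPα cells, 669, 398 and 721 in C/EBPβ cells, 145, 167 and 270.4 in C/EBPδ cells and 625, 587 and 1098 in C/EBPε cells, against 141, 834 and 1186 in vector cells. The lowest and the highest of the 15 arrays were both vector arrays. The dimmest was under the floor on all 15 arrays. With no filter, none of the 6 untested probe sets was called in any C/EBP group, and the lowest adjusted p was 0.151.

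**Figure D3:**
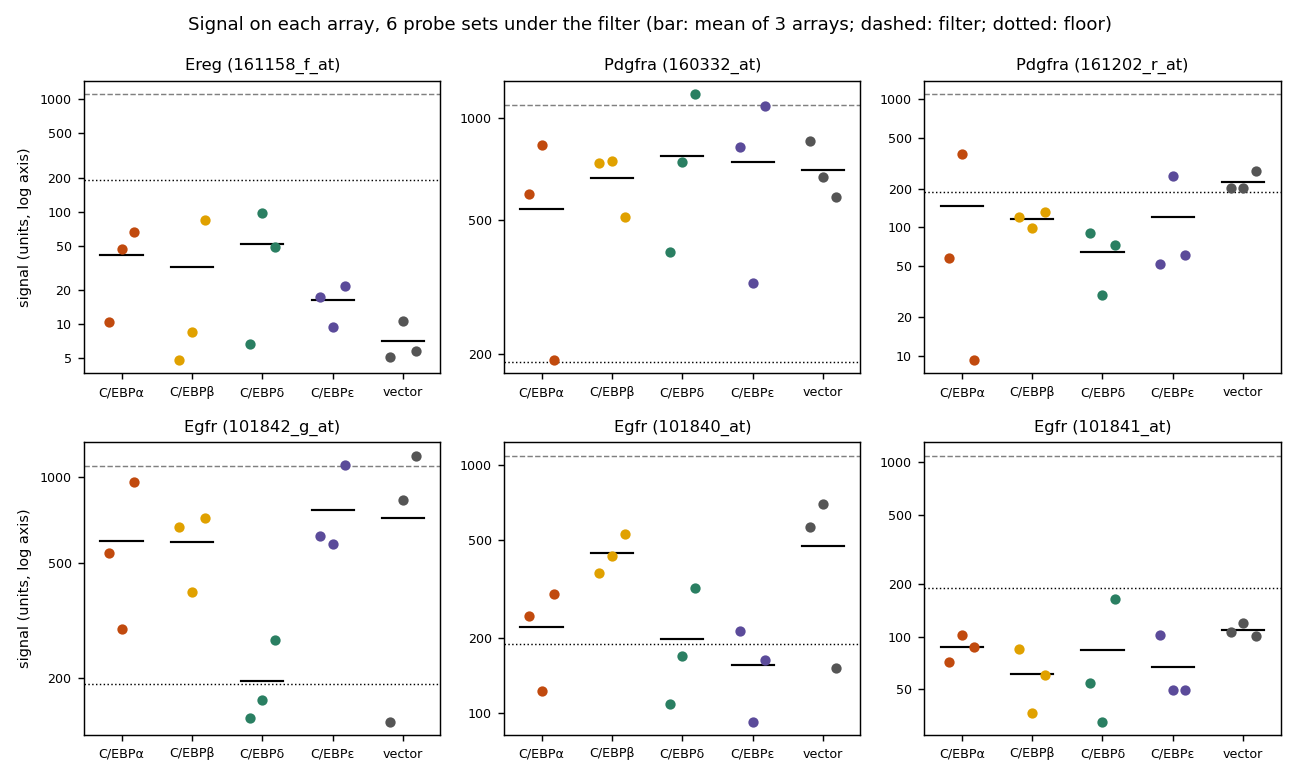
Signal of the 6 probe sets under the filter on each array (points, in units, log axis) by group, with the mean of 3 arrays as a bar, the filter dashed and the floor dotted. The second Ereg probe set and the dimmest Egfr probe set lie under the floor on all arrays.

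Over all groups, in a moderated F-test, Hbegf differed (adjusted p = 1.8e-08) and so did Hgf (0.0245), while Vegfa (0.294), Pdgfra (0.629) and Pdgfrb (0.0604) did not pass; 16.5% of all probe sets were called by this test. The Hgf call rested on its C/EBPα arrays, through which alone it had entered the test, and without any 1 of these 3 Hbegf alone was called. Between the C/EBPs, and leaving out the genes selected on a group compared, 3 of 7 were called between C/EBPβ and C/EBPα (2.86% of all probe sets), 2 of 6 between C/EBPδ and C/EBPα (8.40%), 1 of 5 between C/EBPδ and C/EBPβ (4.77%), 3 of 7 between C/EBPε and C/EBPβ (2.34%) and 1 of 6 between C/EBPε and C/EBPδ (8.21%). Between C/EBPε and C/EBPα limma called 0 of 8, where 1.31% of all probe sets were called, and 2 of the 8, Ereg and Hgf, reached an unadjusted p under 0.05. Hbegf was called in 5 of these 6 comparisons, all but C/EBPε against C/EBPα.

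The wider pathways were read through lists of 116 other genes for ligands, receptors, sheddases, effectors and feedback inhibitors, of which 83 were on the array and 40 were tested. No EGF family ligand or receptor besides Ereg and Hbegf passed the filter, and 1 other FGF ligand did. In C/EBPα cells 5 of the 40 rose and 4 fell, in C/EBPβ cells 3 rose and 1 fell, and in C/EBPε cells 3 rose and 6 fell. Over all probe sets the shares called higher and lower were 7.17% and 7.15% in C/EBPα, 5.13% and 4.18% in C/EBPβ and 9.38% and 6.91% in C/EBPε cells. In C/EBPδ cells limma called 0 of 40, and 0.359% and 0% of all probe sets. The median log2 differences of the 40 were -0.03 in C/EBPα, 0.10 in C/EBPβ, 0.05 in C/EBPδ and 0.11 in C/EBPε cells, against 0.00, 0.04, 0.01 and 0.08 over all probe sets tested.

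Of the 3 FGF receptors tested, 2 fell in C/EBPα cells and 3 in C/EBPε cells, and none passed in C/EBPβ or C/EBPδ cells, where 7.15%, 6.91%, 4.18% and 0% of all probe sets were called lower in C/EBPα, C/EBPε, C/EBPβ and C/EBPδ. Fgfr1, the main FGF receptor of mesenchymal cells, read 6698 ± 221 units in C/EBPα cells, against 12745 ± 1147 in vector cells (log2 difference -0.92, SE 0.14, adjusted p = 0.000251), and 8003 ± 781 in C/EBPε cells (-0.67, adjusted p = 0.00388; named outside the rule, after its value was seen). Its probe set is of the family-shared kind. Fgfr2, the gene whose epithelial splice form binds FGF7, fell by 0.83 in C/EBPα (adjusted p = 0.00986) and by 0.76 in C/EBPε cells (adjusted p = 0.0167). The C/EBPα call of Fgfr2 was lost without vector replicate 2 (0.0537) or the 5 arrays numbered 1 (0.0579), and the C/EBPε call without vector replicate 2 (0.0694), C/EBPε replicate 1 (0.0742) or the 5 arrays numbered 1 (0.131) and with only those groups in the fit (0.0658). Fgfr3 fell in C/EBPε cells to 292 ± 135 units, against 1121 ± 80.9 in vector cells (-2.03, SE 0.33, adjusted p = 0.000472), and with the floor at the 40th percentile the difference was -0.74 (adjusted p = 0.0335). The C/EBPε arrays lay under the filter of 1092.06 units. Fgfr3 therefore entered the test through other groups, and the filter favoured this fall. It was tested in 27 of the 28 alternative fits.

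In the VEGF list 2 of 6 genes rose in each of C/EBPα, C/EBPβ and C/EBPε cells, Nrp1 and Vegfd each time, against the same 3 vector arrays. Over all probe sets 7.17%, 5.13% and 9.38% were called higher in these groups. Nrp1, a co-receptor of VEGF and semaphorins, rose 2.80-fold in C/EBPα cells (4378 ± 745 units, against 1569 ± 278 in vector cells, adjusted p = 1.84e-05), 1.87-fold in C/EBPβ cells (adjusted p = 0.00353) and 1.92-fold in C/EBPε cells (adjusted p = 0.00148), and its difference in C/EBPδ cells was -0.05 (adjusted p = 0.996). Vegfd, a lymphatic growth factor, rose 2.44-fold in C/EBPε cells (2501 ± 168 units, against 1024 ± 12.5 in vector cells, adjusted p = 0.000753). This call held in all 28 alternative fits. In vector cells Vegfd averaged less than the filter of 1092.06 units, so the filter favoured a rise over vector. Its rises in C/EBPα (0.73, adjusted p = 0.0359) and C/EBPβ cells (0.76, adjusted p = 0.0403) did not survive 6 and 8 of the 15 single-array omissions.

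Of 8 feedback inhibitors of receptor signalling, 2 rose and 1 fell in C/EBPα cells, 1 fell in C/EBPβ cells and 1 rose and 1 fell in C/EBPε cells, with 5, 7 and 6 not called, and in C/EBPδ cells limma called 0 of the 8. Over all probe sets, the shares called higher and lower were 7.17% and 7.15% in C/EBPα and 5.13% and 4.18% in C/EBPβ cells. They were 9.38% and 6.91% in C/EBPε and 0.359% and 0% in C/EBPδ cells. Spred2, an inhibitor of the Ras to MAP kinase step, fell in C/EBPα (-0.93, adjusted p = 0.000126), C/EBPβ (-0.71, adjusted p = 0.00269) and C/EBPε cells (-0.69, adjusted p = 0.00198). Dusp6, a phosphatase that switches off ERK, rose in C/EBPα (0.80, adjusted p = 0.00575) and C/EBPε cells (1.06, adjusted p = 0.000717). Errfi1, an inhibitor of the EGF receptor named here outside the rule, rose by 0.54 in C/EBPα cells (adjusted p = 0.0195), which missed the threshold in 4 of the 15 single-array omissions.

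Of 5 sheddases tested, Adam19 rose in C/EBPα cells (1.80-fold, adjusted p = 0.00647) and Adam9 in C/EBPβ cells (1.61-fold, adjusted p = 0.00348). In each of these groups 4 were not called, and 7.17% and 5.13% of all probe sets were called higher. None of the 5, each read by its brightest tested probe set, passed in C/EBPδ or C/EBPε cells. Pdgfa, the PDGF A chain, fell in C/EBPα cells to 5167 ± 1030.4 units, against 8315 ± 701 in vector cells (-0.70, adjusted p = 0.0163), which missed the threshold in 3 of the 15. Its fall in C/EBPε cells (-0.57, adjusted p = 0.0457, named outside the rule) missed it in 9 of the 15. Of 15 adaptors and effectors, Pik3r2, a regulatory subunit of PI 3-kinase, was the 1 called, lower in C/EBPε cells (-1.24, adjusted p = 0.0487). In that group 6.91% of all probe sets were called lower. The Pik3r2 call missed the threshold in 11 of the 15 single-array omissions. Without the 5 arrays numbered 1, besides Fgfr2, the calls lost were Adam19 (adjusted p = 0.102), Dusp6 (0.0505), Errfi1 (0.157) and Vegfd (0.0813) in C/EBPα, Spred2 (0.0507) and Vegfd (0.0957) in C/EBPβ, and Pdgfa (0.198) and Pik3r2 (0.135) in C/EBPε cells.

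**Figure D4:**
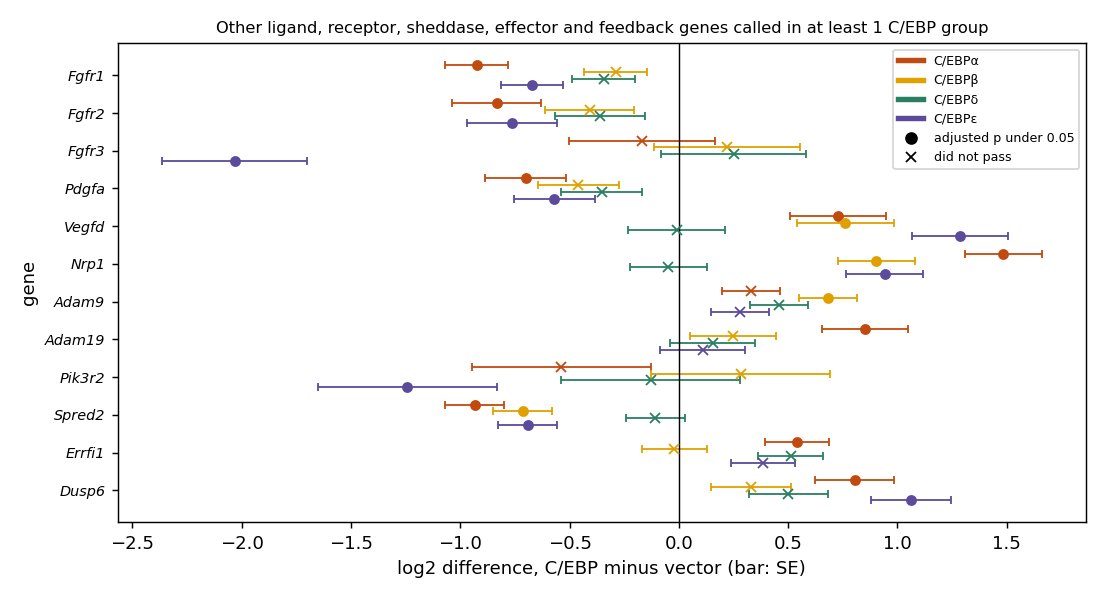
Log2 difference from vector, with its SE, of the 12 list genes called in at least 1 C/EBP group. Circles passed an adjusted p of 0.05 and crosses did not. No C/EBPδ value is a circle.

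The genes most alike in pattern were found by Pearson correlation of log2 signals over the 15 arrays, which share groups and scaling, and are given as a description. For Fgf7 these were the neutrophil chemokine gene Cxcl5 (r = 0.966), the glutaredoxin gene Glrx (0.962) and the oncostatin M receptor gene Osmr (0.959). Osmr averaged 7384 units in C/EBPα, 4493 in C/EBPβ, 4674 in C/EBPδ and 9106 in C/EBPε cells, against 2681 in vector cells. For Ereg they were the chemokine gene Cxcl1 (r = 0.954), Ifi202b (0.922) and Wdr92 (0.903). Cxcl1 averaged 7765 units in C/EBPα, 3200.3 in C/EBPβ, 6510.5 in C/EBPδ and 9209 in C/EBPε cells, against 3157 in vector cells, so that C/EBPβ stood close to vector as it did for Ereg. For Met they were the endocytic adaptor gene Dab2 (r = 0.877), the sheddase gene Adam10 (0.876) and the transferrin receptor gene Tfrc (0.855). This Adam10 probe set is not the brighter one read in the sheddase list, which passed in no C/EBP group. The brighter one differed from vector by 0.12 in C/EBPα, 0.40 in C/EBPβ, 0.04 in C/EBPδ and 0.46 in C/EBPε cells.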

How the data were processed

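NIH 3T3 RNA was hybridised to 15 Affymetrix MG_74Av2 arrays. Per the labels, the authors made the deposited intensity values, linear signal per probe set, with Microarray Suite 5.0. The genome build and the annotation used were not given in the sources used here. With 2% trimmed at each end, array means lay between 2501.12 and 2501.39, so scaling had been done before deposit. The file holds no detection calls, and precision depends on the 3 arrays of each group.

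Of 12488 probe sets, 66 controls were dropped. Array medians (994.6 to 1153.95 units) were then brought to their mean by division. Values under the pooled 20th percentile were raised to it, log2 was taken, and probe sets above the pooled median on at least 3 arrays were tested (6963, for 5338 genes). Symbols came from the platform annotation, and 10833 probe sets name 1 gene.

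All 15 arrays entered 1 fit in limma 3.58.1 (R 4.3.3; lmFit, eBayes with a trend, 10 residual degrees of freedom). Two-sided tests were used, with Benjamini-Hochberg adjustment over the probe sets tested in each contrast and a threshold of 0.05. Errors beside log2 differences are standard errors. The fit was also run on simulated data with independent noise on each array, which cannot speak to deviations shared between arrays. Named are all members, up to 4 rises and 4 falls among list genes per C/EBP, each read by its brightest tested probe set, and the 3 genes most correlated with Fgf7, Ereg and Met. Members, lists, this rule and the alternatives (scaling, floor, filter, trend, array weights, block, subsets of arrays) were chosen with earlier results of these data known.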

Additional observations from a re-analysis of the deposited data

How the results depend on the processing

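For the members, 80 differences were recomputed under up to 28 alternatives, 2230 values in all. Of these values, 22 lost a call, 24 gained one and 0 called values reversed. In size, 1 changed beyond the spread between replicates (Met in C/EBPβ cells, 1.14 with the floor at the 40th percentile). The other 2183 showed none of these changes. They include differences described with no test, which had no call to lose. They also include uncalled differences whose sign varied, as for Pdgfra in C/EBPα cells (-0.22 to 0.08). For the list genes, 22 calls gave 615 values, of which 66 lost the call. The number of members called changed by more than 1.5 times as follows, and the causes were not tested. Between C/EBPβ and vector it was 3, against 1 with only those groups in the fit, and 1 to 3 when 1 array was left out. Between C/EBPδ and C/EBPβ it was 1, against 2 with no further scaling, with the floor at the 40th percentile and with the replicate block, 3 with array weights, and 1 to 2 when 1 array was left out. Between C/EBPε and C/EBPα it was 0, against 1 with the floor at the 40th percentile, with no trend and with the replicate block, and 0 to 1 when 1 array was left out. Between C/EBPε and C/EBPδ it was 1, against 2 with array weights. In the F-test it was 2, against 4 with array weights and 1 to 3 when 1 array was left out. Over all probe sets, 997, 648, 25 and 1134 were called against vector in C/EBPα, C/EBPβ, C/EBPδ and C/EBPε cells. Without the 5 arrays numbered 1 the counts in C/EBPα, C/EBPβ and C/EBPδ cells were 654, 339 and 11, and in C/EBPε cells the lowest count, 690, came with only those groups in the fit. The highest counts were 1440 in C/EBPα cells (replicate block) and 1576, 74 and 1730 in C/EBPβ, C/EBPδ and C/EBPε cells (array weights). Deviations of same-numbered arrays of a C/EBP group and vector correlated at 0.283 to 0.361 for number 1, 0.072 to 0.373 for number 2 and -0.055 to 0.06 for number 3. Over all 10 pairs of groups the ranges were 0.225 to 0.439, 0.019 to 0.428 and -0.069 to 0.124. Since not every pair passed 0.1 the numbers were not taken as pairs, although the arrays numbered 1 deviated together; with the replicate block 1440, 1099, 44 and 1676 probe sets were called in C/EBPα, C/EBPβ, C/EBPδ and C/EBPε cells. Signals near the floor limit what can be said of Met, Hgf, Egfr and Fgfr3.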
